A study of Mus musculus with 57 samples.

Results

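The messenger RNAs of the oxidative phosphorylation machinery were followed in the livers of mice injured by 7 toxicants, with the mitochondrially encoded and the nuclear-encoded members reported apart. Members were the rows whose Ensembl gene ID carried a mouse symbol beginning with mt-Nd, mt-Co, mt-Atp or mt-Cyt, with Nduf, Uqcr, Atp5 or any of Cox4 to Cox8, or equal to Sdha, Sdhb, Sdhc or Sdhd. Leaving out 9 pseudogene rows, this gave 111 of the 54307 genes in the table, 13 of them mitochondrially encoded and 98 nuclear. Of the nuclear members 39 belonged to complex I, 8 were complex I assembly factors, 4 belonged to complex II, 8 to complex III, 21 to complex IV and 18 to ATP synthase, and 2 of the 98 stayed under 1 estimated count in every mouse. The series was made to evaluate a method that estimates cell proportions from the RNA of a whole tissue. It comprised 57 male wild-type C57BL/6JJcl mice, aged 6 weeks and acclimatised for 1 week, which were fasted for 12 h, dosed once and killed 24 h later. By gavage 5 mice received thioacetamide (TAA), 7 received 4,4'-methylene dianiline (MDA), 6 received acetaminophen (APAP) and 4 received alpha-naphthyl isothiocyanate (ANIT). Carbon tetrachloride (CCl4, 7 mice) and galactosamine (GAL, 4) went into the peritoneum, and the lectin concanavalin A (ConA, 7) into a tail vein. Controls received a vehicle alone, 0.5% methylcellulose by gavage in 13 mice and saline in 4, of which 2 were injected intraperitoneally and 2 intravenously, so that there were 17 in all. Corn oil also served as a vehicle for some compounds, per the labels' protocols, and none of the controls analysed here was given it, so for those compounds the effects of compound and vehicle cannot be told apart. RNA came from a piece of left lateral lobe taken after perfusion, a whole-tissue sample in which hepatocytes are mixed with every other liver cell.

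Oxidative phosphorylation couples the oxidation of nutrients to the making of ATP in the inner mitochondrial membrane. Complexes I and II pass electrons from NADH and succinate to ubiquinone, complex III hands them on to cytochrome c, complex IV gives them to oxygen, and ATP synthase uses the proton gradient built by complexes I, III and IV. The genes lie in 2 genomes. The circular mitochondrial DNA, transcribed within the organelle from both strands as long precursors, encodes core membrane subunits of complexes I, III, IV and ATP synthase, whereas all of complex II and most other subunits are nuclear genes whose proteins are imported. Hepatocytes are rich in mitochondria and depend on them for urea synthesis, gluconeogenesis and fatty acid oxidation.

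A pair of mitochondrial sequences is shown because they decide how the mitochondrial members can be read. The first is mt-Atp8, which encodes a small membrane subunit of ATP synthase and lies at chrM:7766-7969 on the plus strand (GRCm38, transcript of GENCODE M21). It is 204 nt long, and its last 43 nt, in capitals, are also the first bases of mt-Atp6, the gene of the proton channel subunit.
mt-Atp8: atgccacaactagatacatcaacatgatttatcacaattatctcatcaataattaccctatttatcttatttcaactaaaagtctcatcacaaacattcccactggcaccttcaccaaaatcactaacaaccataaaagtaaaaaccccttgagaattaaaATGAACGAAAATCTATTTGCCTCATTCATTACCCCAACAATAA
The second is mt-Nd4l, which encodes a small membrane subunit of complex I and lies at chrM:9877-10173 on the plus strand (GRCm38, GENCODE M21). The capitals mark 294 of its 297 nt that are identical to the nuclear copy Gm10222, a stretch of mitochondrial DNA inserted in a chromosome.
mt-Nd4l: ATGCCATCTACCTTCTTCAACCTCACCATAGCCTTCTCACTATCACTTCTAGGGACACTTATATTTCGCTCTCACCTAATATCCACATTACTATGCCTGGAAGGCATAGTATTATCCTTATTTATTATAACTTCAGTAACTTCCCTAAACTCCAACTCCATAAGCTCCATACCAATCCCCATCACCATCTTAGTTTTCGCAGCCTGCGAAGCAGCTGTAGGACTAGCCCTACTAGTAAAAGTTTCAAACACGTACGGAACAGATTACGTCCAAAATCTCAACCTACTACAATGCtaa

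mt-Atp8 took a share of the table out of proportion to its neighbour. Its estimated count was between 23.0 and 110.5 times that of mt-Atp6 in the 57 mice, with a median of 42.7. The deposited values look corrected for transcript length, so that 1 read in a short gene weighs more than 1 read in a long gene: among single-transcript genes the median of the smallest value above 0 was 103.7 at 180 to 230 nt and 0.686 at 1300 to 1900 nt. mt-Atp8 alone made up between 2.46% and 30.3% of a mouse's summed estimated counts, with a mean of 10.8%. Every sum over the mitochondrial members is therefore given with and without it.

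Reads of several mitochondrial genes could also be assigned to nuclear copies. Gm10222 shares 294 of 297 nt with mt-Nd4l, Gm28438 342 of 348 nt with mt-Nd3, Gm28661 681 of 684 nt with mt-Co2, Gm10925 678 of 681 nt with mt-Atp6, Gm28437 783 of 784 nt with mt-Co3, Gm29216 479 of 1545 nt with mt-Co1 and Gm28439 876 of 1378 nt with mt-Nd4. The mitochondrial row held between 3.48% and 7.92% of the summed values of gene and copies for mt-Nd4l, depending on the group, 4.91% to 9.38% for mt-Nd3, 5.60% to 15.4% for mt-Co2, 13.5% to 20.9% for mt-Atp6, 34.0% to 44.8% for mt-Co3 and 60.6% to 70.1% for mt-Co1. No nuclear copy of mt-Atp8 was found by shared sequence, and with its copy added to mt-Atp6 the mt-Atp8 to mt-Atp6 ratio ranged from 5.20 to 10.9, with a median of 8.15. Values of these 6 genes are uncertain for this reason, and fold changes with the copies added are given where they alter a call.

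**Figure D1:**
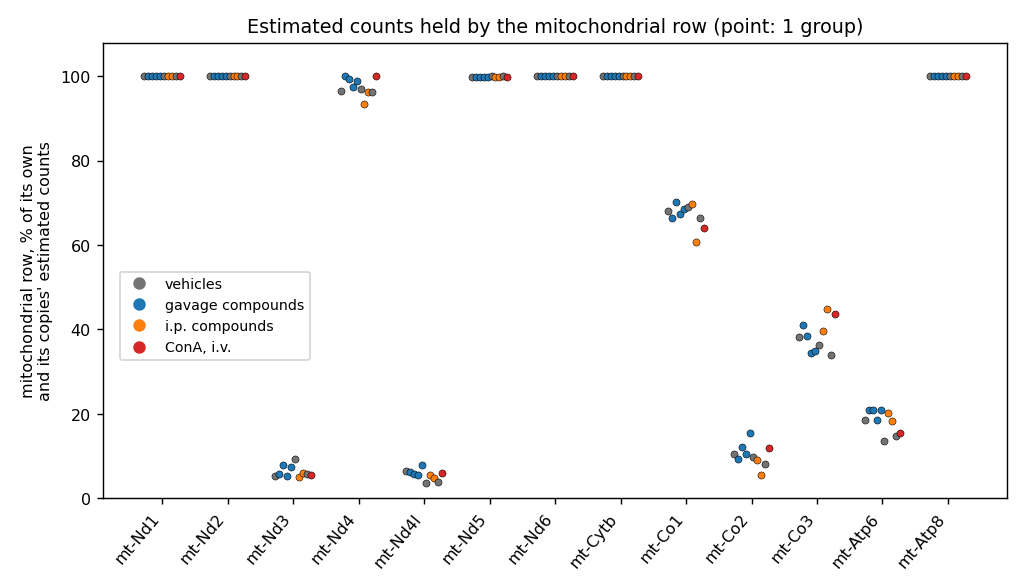
Share of the summed estimated counts of each mitochondrial gene and its nuclear copies that stood in the mitochondrial row, in percent (vertical axis), for each mitochondrial gene (horizontal axis), with 1 point per group of mice. The row of mt-Nd4l held between 3.48% and 7.92% and that of mt-Co1 between 60.6% and 70.1%.

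Column totals ranged from 13826352 to 35075747 rounded estimated counts. Levels are given as CPM, counts brought to a common library size by TMM scaling over all 57 mice. Each fold change is from the quasi-likelihood test of edgeR on the 2 groups named, as log2 treated over control ± SE, two-sided, with p-values adjusted over all genes tested by Benjamini-Hochberg and called under 0.05. Nothing states that the mice of a group were housed or handled apart from each other, so p-values measure the spread between these livers. In whole-tissue RNA, fewer cells of a type and less RNA per cell cannot be told apart.

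The saline controls, which serve CCl4, GAL and ConA, were 2 mice per route and differed widely from each other in the mitochondrial members. The 12 mitochondrial mRNAs other than mt-Atp8 took 3.93% and 2.35% of the summed estimated counts in the 2 intraperitoneal controls and 2.87% and 5.82% in the 2 intravenous ones, against 3.12% to 8.20% (median 4.92%) in the 13 gavage controls. Against the gavage controls, none of the 13 mitochondrial members passed in the intraperitoneal controls, with a median log2 difference of -0.98 and 6 at an unadjusted p under 0.05, and DESeq2 called 1 mitochondrial and 1 nuclear member. None of the 93 nuclear members tested passed there either, and 0.0131% of all genes did. Neither genome had a called member between the intravenous and the gavage controls, where 0.0263% of all genes passed. For this reason every compound is set against its own route vehicle and then against all 17 vehicle mice.

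The summed mitochondrial mRNAs were highest in the livers of ConA mice. Without mt-Atp8 they took 7.59% ± 1.57 (SD, n = 7) of the estimated counts with ConA, ranging over 5.88 to 9.89 (median 7.52), against 5.27% ± 1.27 (SD, n = 13) in gavage controls. The share was 5.07% ± 0.777 (SD, n = 4) with ANIT, 4.27% ± 0.428 (SD, n = 6) with APAP, 5.13% ± 1.03 (SD, n = 7) with MDA and 5.36% ± 1.11 (SD, n = 5) with TAA. With CCl4 it was 3.82% ± 0.600 (SD, n = 7) and with GAL 4.84% ± 0.988 (SD, n = 4). All 7 ConA mice lay above the 4 saline mice in this share, while 4 of the 13 gavage controls, the highest at 8.20%, lay among them. With mt-Atp8 the share was 24.6% ± 7.69 (SD, n = 7) with ConA, with mice at 14.5 to 39.3 (median 24.3), and the 2 intravenous controls stood at 6.76 and 25.3, so that here 1 of them lay within the ConA range. The remaining groups with mt-Atp8 averaged between 11.6% for CCl4 and 17.6% for MDA, and the gavage controls 15.2%.

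**Figure D2:**
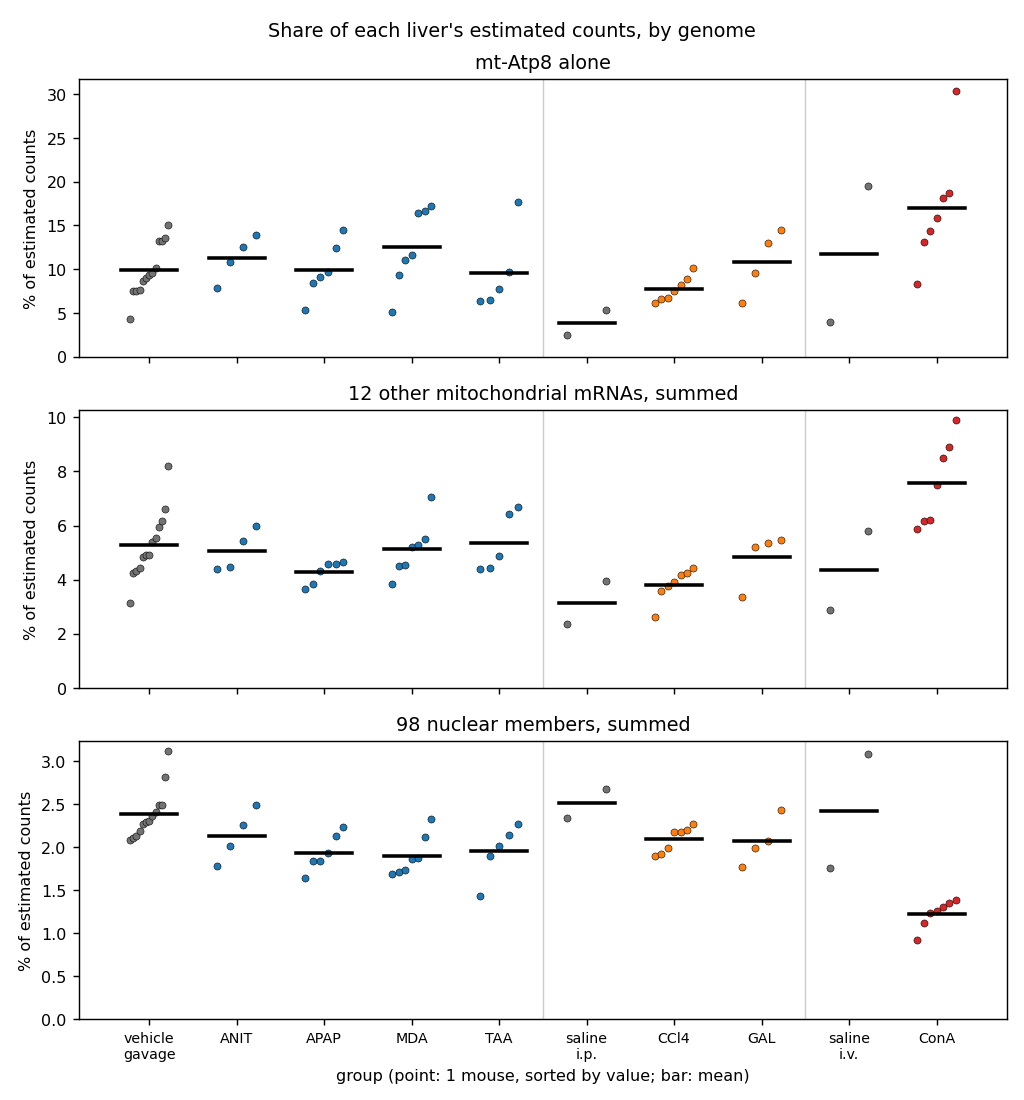
Share of each mouse's summed estimated counts, in percent (vertical axes), held by mt-Atp8, by the other 12 mitochondrial mRNAs and by the 98 nuclear members, by group (horizontal axis), with 1 point per mouse and a bar at the mean of each group. ConA mice lie between 5.88% and 9.89% for the mitochondrial mRNAs without mt-Atp8 and between 0.912% and 1.39% for the nuclear members.

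The nuclear members held a smaller share with ConA than in the controls. They took 1.22% ± 0.163 (SD, n = 7) of the estimated counts with ConA and 2.38% ± 0.296 (SD, n = 13) in gavage controls, and every ConA mouse lay below all 17 vehicle mice. The intravenous controls were at 3.08 and 1.75%. The ratio of the 12 mitochondrial mRNAs to the nuclear members was 4.24 to 9.78 (median 5.99) in ConA mice, against 0.930 to 3.94 (median 2.17) over the 17 vehicle mice, and the 2 sets did not overlap. With the nuclear copies added to their mitochondrial genes the ratio was 9.46 to 23.6 (median 12.98) with ConA and 2.00 to 8.83 (median 4.62) in vehicle mice. In the other compounds the group means of the ratio without copies lay between 1.85 for CCl4 and 2.87 for TAA. Shares add up to a fixed total, so a larger share of some rows lowers that of other genes. Scaled by the library total, 26.4% of all genes fell with ConA against the route vehicle and 7.78% rose.

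Gene by gene, the mitochondrial members of ConA livers did not all pass. Against the 2 intravenous controls 3 of 13 rose and 1 fell, with a median log2 fold change of 1.43, or 1.50 over the 12 without mt-Atp8, beside 0.03 over all genes. DESeq2 called 7 higher and 1 lower, beside 18.5% and 16.3% of the genes it tested, and without ConA mouse 12 edgeR called 6 higher and 1 lower, beside 17.4% and 18.7%. Of all genes tested by edgeR with all mice 16.8% rose and 17.3% fell. The 3 of 13 that rose are near the first share and the 1 that fell is below the second. Those edgeR counts are thus no result about these mRNAs, and the values of the called genes are given as a description. mt-Atp6 stood at 3495 to 8094 (median 4870.2) CPM with ConA and at 1122 and 1995 CPM in the controls, a log2 fold change of 1.86 ± 0.38, adjusted p = 0.00442. mt-Nd4l stood at 1105 to 3772 (median 2189.9) CPM against 605 and 81.3 CPM (2.78 ± 0.78, adjusted p = 0.0195). mt-Co3, a subunit of the catalytic core of complex IV, stood at 8276 to 27379 (median 15249) CPM against 1532 and 7194 CPM (1.92 ± 0.67, adjusted p = 0.0487). In all 3 genes every ConA mouse lay above both controls, and all 3 share most of their bases with a nuclear copy. With the copies added these log2 fold changes were 1.45 ± 0.68, adjusted p = 0.123 for mt-Atp6, 1.25 ± 0.63, adjusted p = 0.152 for mt-Nd4l and 1.67 ± 0.64, adjusted p = 0.0690 for mt-Co3, none of them called. In their place mt-Co1 (1.46 ± 0.48, adjusted p = 0.0391) and mt-Co2 (1.51 ± 0.48, adjusted p = 0.0346), the subunits that carry the copper and haem centres of complex IV, were called higher.

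mt-Nd6 went against the other mitochondrial mRNAs of ConA livers. This complex I subunit is the only protein encoded on the opposite strand of the mitochondrial DNA. It stood at 16.5 to 27.8 (median 17.7) CPM with ConA and at 55.9 and 69.0 CPM in the controls, a log2 fold change of -1.61 ± 0.23, adjusted p = 0.000596. Every ConA mouse lay below both controls. Whether strand was used in counting is not given in the sources used here, so that RNA from the strand opposite to mt-Nd6 cannot be told apart from its mRNA. mt-Cytb, the cytochrome b of complex III, stood at 8892 to 38462 (median 19327) CPM against 2655 and 11003 CPM and did not pass (1.64 ± 0.63, adjusted p = 0.0695). mt-Atp8 stood at 82512 to 636028 (median 262997) CPM against 35719 and 220519.6 CPM and did not pass (1.21 ± 0.79, adjusted p = 0.261). In mt-Cytb and mt-Atp8 alike, 1 control was low and the other lay within the range of the ConA mice.

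Set against all 17 vehicle mice, 11 of the 13 mitochondrial members rose with ConA and mt-Nd6 fell, with a median of 1.26, or 10 and 1 of 12 with a median of 1.16 without mt-Atp8. All genes tested rose in 34.0% and fell in 34.1% of cases here. mt-Cytb rose by 1.70 ± 0.29, adjusted p = 1.53e-05, mt-Co1 by 1.26 ± 0.22, adjusted p = 2.28e-05 and mt-Atp8 by 1.56 ± 0.35, adjusted p = 0.000353. mt-Nd6 was at -1.51 ± 0.38, adjusted p = 0.00107. The exception was mt-Nd4l at 0.87 ± 0.49, adjusted p = 0.117. With the nuclear copies added 12 rose and 1 fell, mt-Nd4l included (0.93 ± 0.32, adjusted p = 0.0132). Scaled by the library total alone, all genes had a median of -0.61 and the mitochondrial members one of 0.60, with 6 called higher and 1 lower, beside 17.0% and 50.8% of all genes.

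**Figure D3:**
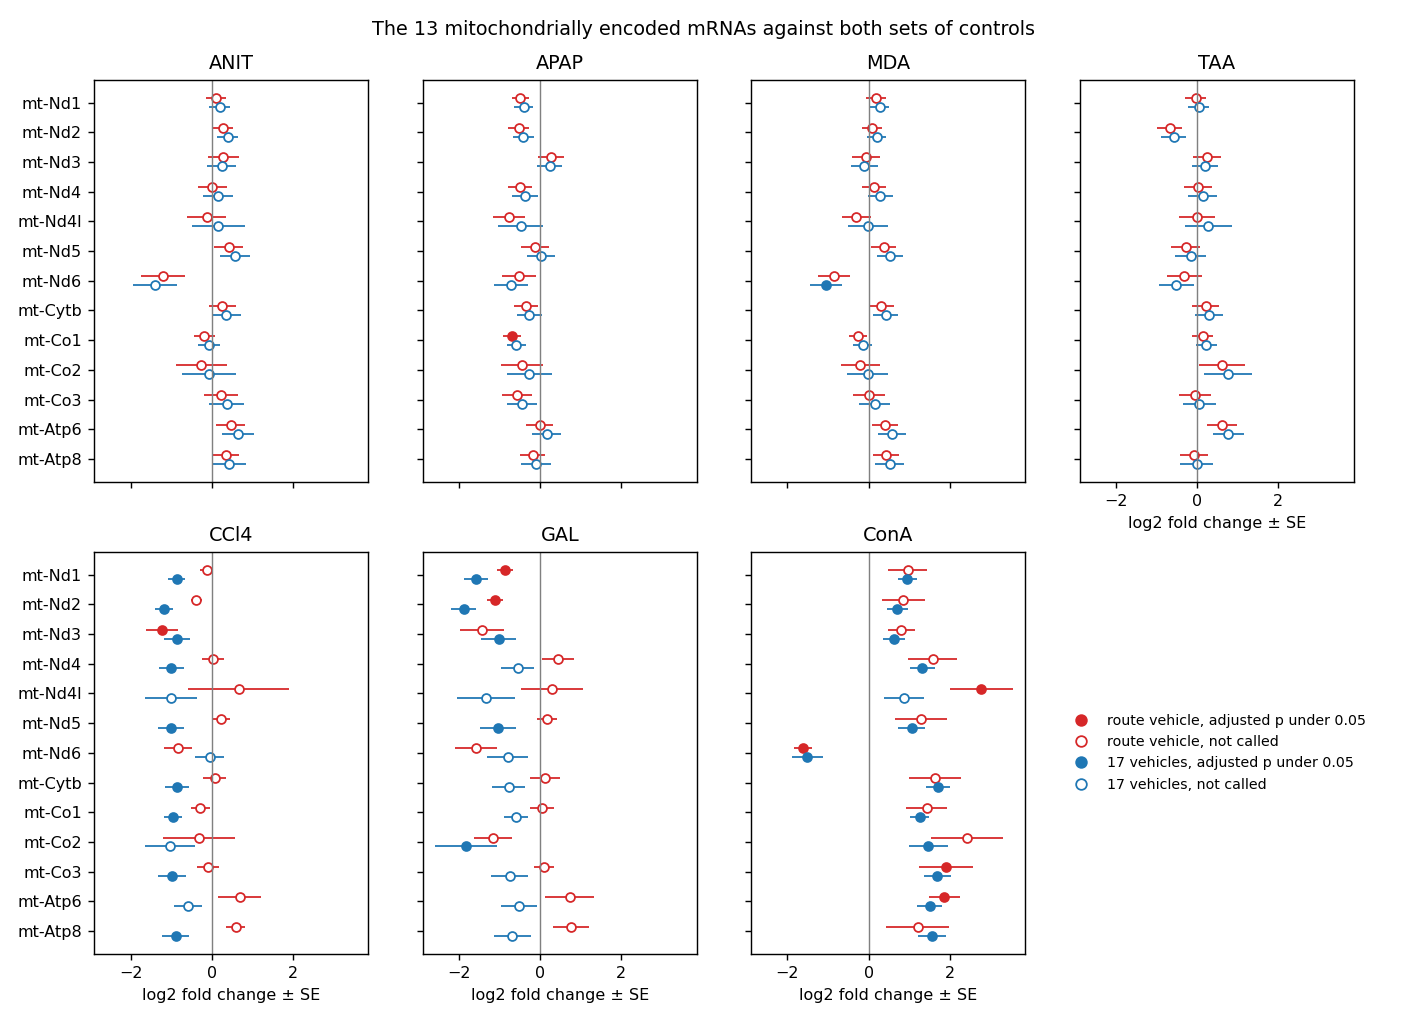
Log2 fold change (horizontal axes) of the 13 mitochondrial mRNAs (vertical axes) for each compound, against the route vehicle and against all 17 vehicle mice, with bars for the standard error and filled points for an adjusted p under 0.05. With ConA mt-Nd6 is at -1.61 against the route vehicle and the other 12 are above 0.

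The mitochondrial mRNAs called with GAL and CCl4 depended on the control. With GAL 2 of 13 fell and 0 rose against the intraperitoneal controls, where 15.7% of all genes fell and 12.8% rose, with a median of 0.10, or 0.070 without mt-Atp8, beside 0.08 over all genes. The 2 of 13 are the same share as that of all genes that fell, so the count is no result about these mRNAs, and the values are given as a description. Both encode membrane subunits of complex I. mt-Nd1 stood at 1441, 1804, 1918 and 1783 CPM in the GAL mice and at 3543 and 2787 CPM in the controls (-0.87 ± 0.19, adjusted p = 0.0200). mt-Nd2 stood at 1670.1, 2108, 2409 and 2253 CPM against 4809 and 4321 CPM (-1.11 ± 0.19, adjusted p = 0.00928). In mt-Nd1, mt-Nd2, mt-Nd3 and mt-Nd6 all 4 GAL mice lay below both controls, and mt-Nd3 (-1.43 ± 0.53, adjusted p = 0.0881) and mt-Nd6 (-1.58 ± 0.51, adjusted p = 0.0615) did not pass. These 4 of 13 stood beside 25.6% of all genes, a share near it. With its nuclear copy added mt-Nd3 was called lower, by a smaller change (-0.79 ± 0.22, adjusted p = 0.0375). Against all 17 vehicle mice 5 of 13 fell and 0 rose, with a median of -0.80, or -0.91 for the 12, beside 27.5% of all genes falling and 25.1% rising. These were mt-Nd1 (-1.58 ± 0.30, adjusted p = 0.000111), mt-Nd2 (-1.89 ± 0.31, adjusted p = 2.59e-05), mt-Nd3, mt-Nd5 and mt-Co2. The GAL mice lay below all 17 vehicle mice in mt-Nd1 and mt-Nd2. These values are relative to a TMM scaling in which the typical gene sits near 0: with the library total, which moves the median of all genes to 0.84 against the route vehicle, the mitochondrial median was 0.84 as well and 3 members were called higher and 0 lower, beside 35.5% and 5.42% of all genes.

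With CCl4 1 of 13 mitochondrial mRNAs fell and 0 rose against the intraperitoneal controls, fewer than the 15.6% of all genes lower and 18.0% higher, with a median of -0.10 and of -0.11 without mt-Atp8. The gene was mt-Nd3, at 66.7 to 300.1 (median 184) CPM against 562 and 332 CPM (-1.23 ± 0.39, adjusted p = 0.0385), and with its copy added it no longer passed (-0.29 ± 0.22, adjusted p = 0.355). Against all 17 vehicle mice 9 of 13 fell, or 8 of 12 without mt-Atp8, and 0 rose, with medians of -0.95 and -0.96, beside 27.0% of all genes lower and 26.3% higher. mt-Nd2 (-1.18 ± 0.22, adjusted p = 7.03e-05) and mt-Co1 (-0.95 ± 0.22, adjusted p = 0.000726) were among them, and mt-Nd2 lay below every vehicle mouse in all 7 CCl4 livers. With the copies added mt-Atp6 (-0.79 ± 0.27, adjusted p = 0.0160), mt-Nd4l (-1.05 ± 0.32, adjusted p = 0.00694) and mt-Co2 (-0.91 ± 0.22, adjusted p = 0.00104) were called lower as well. The library total moved the median of all genes to 0.53 against the route vehicle and gave a mitochondrial median of 0.31 with 2 members higher and 0 lower, beside 29.7% and 7.14% of all genes. With all 17 controls it left 1 of the 9 falls, beside 12.2% of all genes lower and 50.3% higher. Of the 17 vehicle mice 1 intraperitoneal control had the lowest share of the 12 mitochondrial mRNAs, 2.35%, while the other was at 3.93%, and the part of this in the difference between both sets of results was not tested.

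The gavage compounds changed few mitochondrial mRNAs. With APAP 1 of 13 fell and 0 rose, beside 14.6% and 17.3% of all genes, and the median was -0.49, or -0.50 without mt-Atp8, beside 0.07 over all genes. mt-Co1, the catalytic subunit of complex IV, stood at 9259.5 to 11916 (median 10292) CPM with APAP and at 8286 to 30551 (median 15809) CPM in gavage controls (-0.69 ± 0.21, adjusted p = 0.0183), with the ranges overlapping. Against all 17 vehicle mice it was at -0.59 ± 0.23, adjusted p = 0.0529, so that 0 of 13 passed, and with its copy added it was called lower (-0.64 ± 0.24, adjusted p = 0.0424). The background was 15.3% of all genes lower and 18.1% higher. None of the 13 passed with ANIT, MDA or TAA against the gavage controls, with 1 member each at an unadjusted p under 0.05, and DESeq2 called 1 with ANIT, 0 with MDA and 1 with TAA. The medians were 0.24 with ANIT, 0.08 with MDA and 0.01 with TAA, and 0.17, 0.048 and 0.015 without mt-Atp8. All genes rose in 14.0% and fell in 14.2% of cases with ANIT, 17.4% and 16.4% with MDA, and 26.4% and 24.0% with TAA. The lowest value with ANIT was that of mt-Nd6 (-1.21 ± 0.54, adjusted p = 0.107). Against all 17 vehicle mice mt-Nd6 fell with MDA (-1.05 ± 0.39, adjusted p = 0.0386) and was at -0.86 ± 0.39, adjusted p = 0.0971 against the gavage controls alone, while 0 of 13 passed with ANIT or TAA. The background of these comparisons was 13.5% higher and 14.5% lower with ANIT, 17.2% and 17.1% with MDA, and 25.2% and 24.5% with TAA.

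The falls of the nuclear members exceeded the share of all genes most with GAL, CCl4 and APAP, and with ANIT they stayed below it. Against the route vehicle 60 of 90 tested fell with APAP and 0 rose, with a median log2 fold change of -0.47, beside 14.6% of all genes lower and 17.3% higher. CCl4 lowered 67 of 92 and raised 1 (median -0.67), beside 15.6% and 18.0%. GAL lowered 73 of 91 and raised 1 (median -1.08), beside 15.7% and 12.8%. MDA lowered 36 of 90 and raised none (median -0.31), beside 16.4% and 17.4%. Closer to the share of all genes were TAA, with 26 of 90 lower and 0 higher (median -0.28) beside 24.0% and 26.4%, and ConA, with 21 of 91 lower and 1 higher (median -0.51) beside 17.3% and 16.8%. With ANIT 8 of 91 fell and 1 rose, below the 14.2% and 14.0% of all genes, and the median was 0.0027, beside a median of -0.014 over all genes. The falls with ANIT and with TAA include Ndufs6b, which was at 0 CPM in every mouse of these groups and could only be called lower.

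Overlap between treated and control mice varied between compounds. All GAL mice lay below both intraperitoneal controls in 80 of the 91 nuclear members tested, beside 25.6% of all genes, and all CCl4 mice did in 74 of 92, beside 19.9%. ConA mice lay below both intravenous controls in 39 of 91, beside 21.5%. Among the gavage compounds, whose 13 controls leave less room, this held in 19 of 90 with APAP (4.61% of all genes), 4 of 90 with TAA (10.2%), 3 of 91 with ANIT (4.97%) and 1 of 90 with MDA (3.02%).

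**Figure D4:**
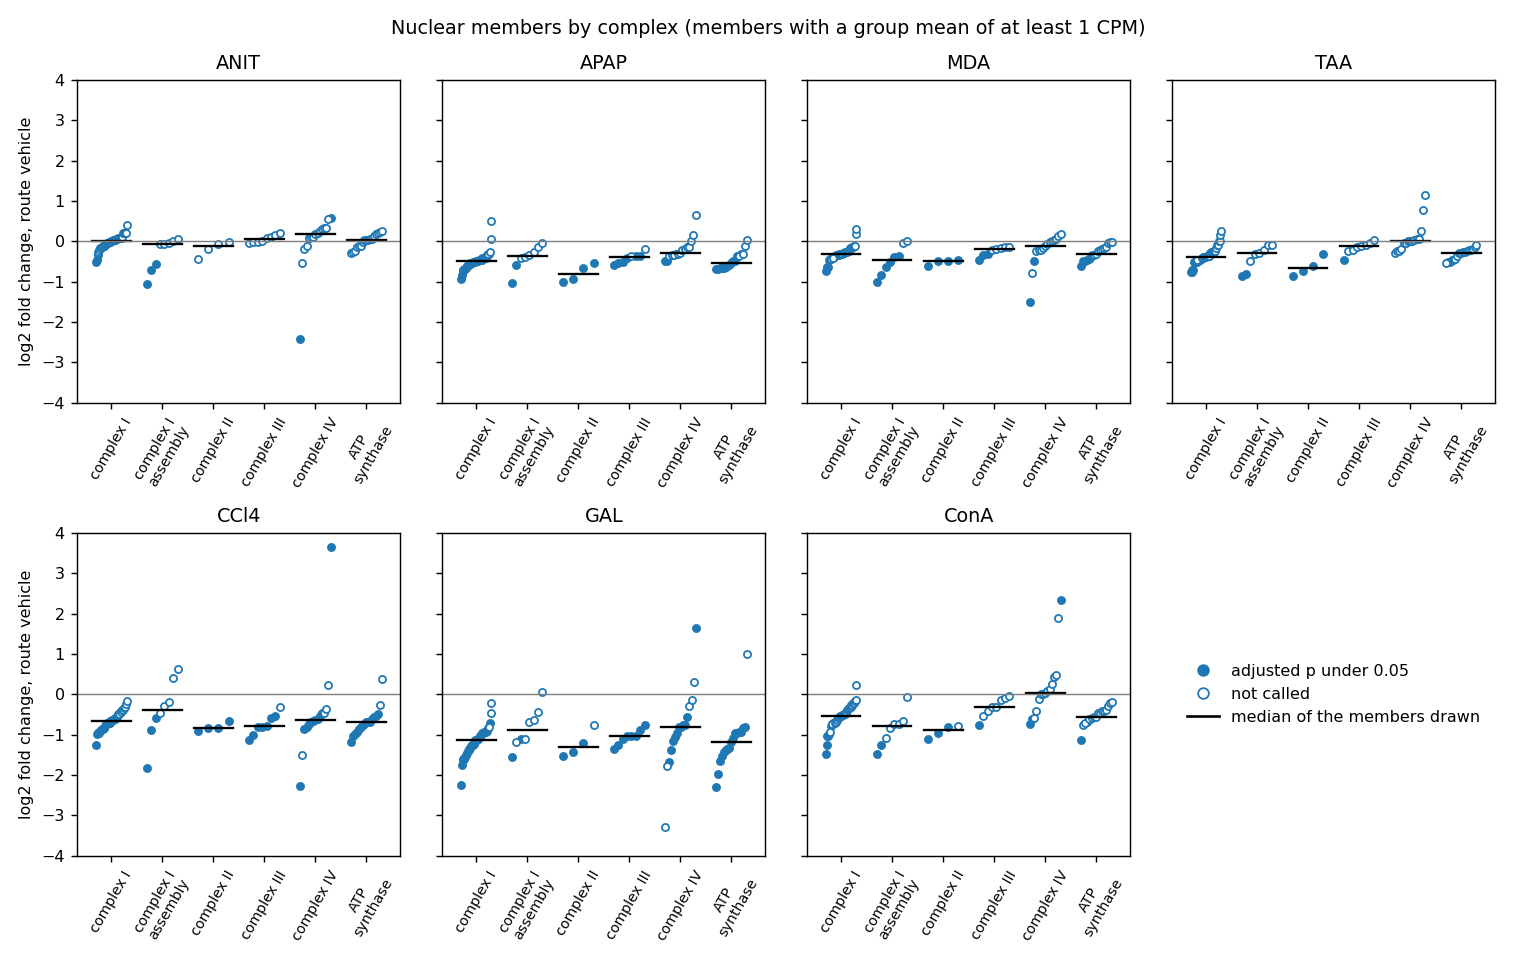
Log2 fold change of each nuclear member against the route vehicle (vertical axis) for each compound, by complex (horizontal axis), with 1 point per gene of at least 1 CPM on average in a group, filled where the adjusted p is under 0.05, and a bar at the median of the points. Complex II medians lie at -1.31 with GAL and -0.12 with ANIT.

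These counts rest on the scaling and, for the saline routes, on single control mice. With the library total in place of TMM, which moved the median of all genes to 0.84 with GAL, 0.53 with CCl4, -0.56 with ConA, -0.23 with ANIT and 0.22 with APAP, the nuclear medians were -0.31, -0.25, -1.14, -0.21 and -0.31, so that each stayed below the median of all genes except with ANIT, where they were at -0.21 and -0.23. The calls were then 3 higher and 11 lower with GAL, beside 35.5% of all genes higher and 5.42% lower under the same scaling. They were 4 and 12 with CCl4 (29.7% and 7.14% of all genes), 0 and 63 with ConA (7.78% and 26.4%), 0 and 13 with ANIT (5.86% and 18.8%), and 0 and 35 with APAP (21.0% and 8.00%). The falls were thus above the share of all genes with ConA and APAP, by less with GAL and CCl4, and below it with ANIT. Leaving out intravenous control 7 left 5 calls with ConA, 3 higher and 2 lower, beside 12.3% and 11.6% of all genes, and leaving out intraperitoneal control 8 left 45 with CCl4. TAA calls ran from 16 without TAA mouse 6 to 66 without TAA mouse 1, and ANIT calls fell from 9 to 4 without ANIT mouse 4. For these CCl4, TAA and ANIT fits the share of all genes is not given here. Their counts show dependence on single mice and are no result about the members.

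Complex I, the NADH dehydrogenase, is the largest set. Of its 38 nuclear subunits tested 32 fell with APAP, 14 with MDA, 15 with TAA, 28 with CCl4, 10 with ConA and 4 with ANIT, and 34 of 37 fell with GAL. No subunit rose. The 4 with ANIT are a smaller share than the 14.2% of all genes that fell, and the 10 with ConA and 15 with TAA stand beside 17.3% and 24.0%, against 14.6% to 16.4% with APAP, CCl4, GAL and MDA. Ndufs6b is among the falls with ANIT and with TAA and stood at 0 CPM in every mouse of both groups. It could pass the filter on low values there only through the gavage controls and could only be called lower. Its calls are given as a description. The medians were -0.50 with APAP, -0.66 with CCl4, -1.13 with GAL and -0.53 with ConA. Ndufs8 carries iron-sulfur clusters in the arm that leads to ubiquinone. It stood at 46.2, 28.8, 27.0 and 30.1 CPM with GAL and at 135 and 176 CPM in the intraperitoneal controls, a log2 fold change of -2.23 ± 0.24, adjusted p = 0.00275. With ConA it was at 46.2 to 77.8 (median 65.3) CPM against 184 and 85.7 CPM (-1.03 ± 0.28, adjusted p = 0.0175). Gavage controls held 115 to 231 (median 161) CPM and ANIT mice 108, 125, 124 and 89.6 CPM (-0.51 ± 0.17, adjusted p = 0.0308), with the ranges overlapping. Its log2 fold changes were -0.83 ± 0.15, adjusted p = 0.000328 with APAP, -0.63 ± 0.15, adjusted p = 0.00320 with MDA, -0.75 ± 0.19, adjusted p = 0.00291 with TAA and -0.91 ± 0.16, adjusted p = 0.00193 with CCl4, where comparisons by the same route share their controls.

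Ndufs1, the large iron-sulfur subunit that receives electrons near NADH, fell with all 6 APAP mice below all 13 gavage controls, at 23.5 to 40.8 (median 33.9) CPM against 43.9 to 78.5 (median 53.7) CPM (-0.72 ± 0.13, adjusted p = 0.000248). TAA mice, at 38.5, 27.3, 40.4, 40.6 and 42.3 CPM, also lay below these controls (-0.51 ± 0.13, adjusted p = 0.00228), and ConA mice were at 18.3 to 46.6 (median 25.2) CPM against 49.7 and 89.9 CPM (-1.25 ± 0.32, adjusted p = 0.0133). Ndufb10 is an accessory subunit of the membrane arm. It stood at 82.6 to 129 (median 119.7) CPM with APAP against 165 to 313 (median 219) CPM (-0.93 ± 0.15, adjusted p = 7.94e-05) and at 80.5, 58.2, 50.5 and 60.4 CPM with GAL against 195 and 224 CPM (-1.75 ± 0.20, adjusted p = 0.00312), with no overlap in either comparison. Ndufs7, another iron-sulfur subunit beside ubiquinone, was at 29.1 to 50.9 (median 35.4) CPM with ConA against 153 and 65.0 CPM (-1.47 ± 0.31, adjusted p = 0.00530). Ndufv3, an accessory subunit of the NADH-oxidising module, was at 71.4 to 119 (median 95.3) CPM with CCl4 against 217 and 251 CPM (-1.26 ± 0.17, adjusted p = 0.000430). All of these treated mice lay below their controls.

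The complex I assembly factors, which help build the complex and are not part of the finished enzyme, were 8 in number. Of 8 tested, 3 fell with ANIT, 2 with APAP, 6 with MDA, 2 with TAA, 3 with CCl4, 2 with GAL and 2 with ConA, and none rose. With 8 genes, 2 falls are near the share of all genes, which was 24.0% with TAA, 14.6% with APAP, 15.7% with GAL and 17.3% with ConA. The share was 14.2% with ANIT, 16.4% with MDA and 15.6% with CCl4, so that 6 of 8 with MDA stood farthest above it. Ndufaf5, which modifies Ndufs7, stood at 2.60, 2.78, 1.85 and 1.92 CPM with ANIT and at 3.09 to 6.15 (median 4.96) CPM in gavage controls (-1.05 ± 0.19, adjusted p = 0.000452), with every ANIT mouse below every control. TAA mice were at 3.07, 2.69, 2.59, 2.16 and 2.70 CPM (-0.80 ± 0.16, adjusted p = 0.000349) and ConA mice at 1.27 to 3.13 (median 1.90) CPM against 5.83 and 3.70 CPM (-1.25 ± 0.37, adjusted p = 0.0244). Ndufaf6 stood at 11.3, 12.8, 10.3 and 11.5 CPM with ANIT (-0.57 ± 0.18, adjusted p = 0.0274) and 7.76 to 11.5 (median 9.18) CPM with MDA (-0.84 ± 0.15, adjusted p = 0.000167), both below the 13.3 to 25.9 (median 15.5) CPM of the gavage controls. It was the single nuclear member whose MDA mice did not overlap with the controls. Ndufaf1, which acts on the membrane arm, was at 10.3, 6.60, 9.67, 7.17 and 8.42 CPM with TAA against 11.6 to 22.6 (median 15.9) CPM (-0.86 ± 0.16, adjusted p = 0.000142) and at 5.80 to 10.5 (median 6.54) CPM with ConA against 21.6 and 21.2 CPM (-1.48 ± 0.26, adjusted p = 0.00188). Ndufaf3, which acts on the ubiquinone-binding module, fell with CCl4 from 31.4 and 34.7 CPM to 6.32 to 13.1 (median 9.06) CPM (-1.83 ± 0.23, adjusted p = 0.000337).

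Complex II, the succinate dehydrogenase shared with the tricarboxylic acid cycle, is encoded by the nucleus alone. All 4 of its subunits fell with APAP, MDA, TAA and CCl4, 3 of 4 fell with GAL and with ConA, and 0 of 4 with ANIT. Of all genes 14.6% fell with APAP, 16.4% with MDA, 24.0% with TAA, 15.6% with CCl4, 15.7% with GAL, 17.3% with ConA and 14.2% with ANIT. The medians were -0.80 with APAP, -0.49 with MDA, -0.67 with TAA, -0.83 with CCl4, -1.31 with GAL, -0.88 with ConA and -0.12 with ANIT. Sdhb, the iron-sulfur subunit, stood at 222 to 371 (median 269.7) CPM in gavage controls, 95.3 to 206 (median 125) CPM with APAP (-1.01 ± 0.15, adjusted p = 6.21e-05) and 186, 322, 278 and 264 CPM with ANIT (-0.056 ± 0.14, adjusted p = 0.807). All 6 APAP mice lay below the controls and the ANIT mice lay on both sides. MDA mice were at 136 to 301 (median 166) CPM (-0.49 ± 0.15, adjusted p = 0.0152) and TAA mice at 258, 138, 102, 98.1 and 131 CPM (-0.85 ± 0.19, adjusted p = 0.00113), where TAA mouse 1 was within the control range and the other 4 below it.

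Among the saline routes Sdhb stood at 248 and 272 CPM in the intraperitoneal controls, 112 to 186 (median 142) CPM with CCl4 (-0.83 ± 0.15, adjusted p = 0.00231) and 104, 93.4, 81.1 and 85.2 CPM with GAL (-1.52 ± 0.15, adjusted p = 0.00238). With ConA it stood at 75.9 to 140.2 (median 127) CPM against 292 and 226 CPM (-1.10 ± 0.24, adjusted p = 0.00575). None of these treated mice reached a control of its route. Sdha, the subunit that binds FAD and succinate, fell with APAP from 142 to 299.7 (median 176) CPM to 64.8 to 112 (median 99.8) CPM (-0.93 ± 0.17, adjusted p = 0.000274) and with TAA to 139, 84.1, 99.7, 91.0 and 107 CPM (-0.73 ± 0.17, adjusted p = 0.00125). It did not pass with GAL (-0.76 ± 0.23, adjusted p = 0.0514) or ConA (-0.78 ± 0.35, adjusted p = 0.114). Sdhc and Sdhd anchor the enzyme in the membrane. Sdhc was at -1.20 ± 0.17, adjusted p = 0.00506 with GAL and -0.96 ± 0.26, adjusted p = 0.0170 with ConA, and Sdhd at -1.42 ± 0.16, adjusted p = 0.00325 with GAL and -0.62 ± 0.11, adjusted p = 0.000120 with MDA.

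**Figure D5:**
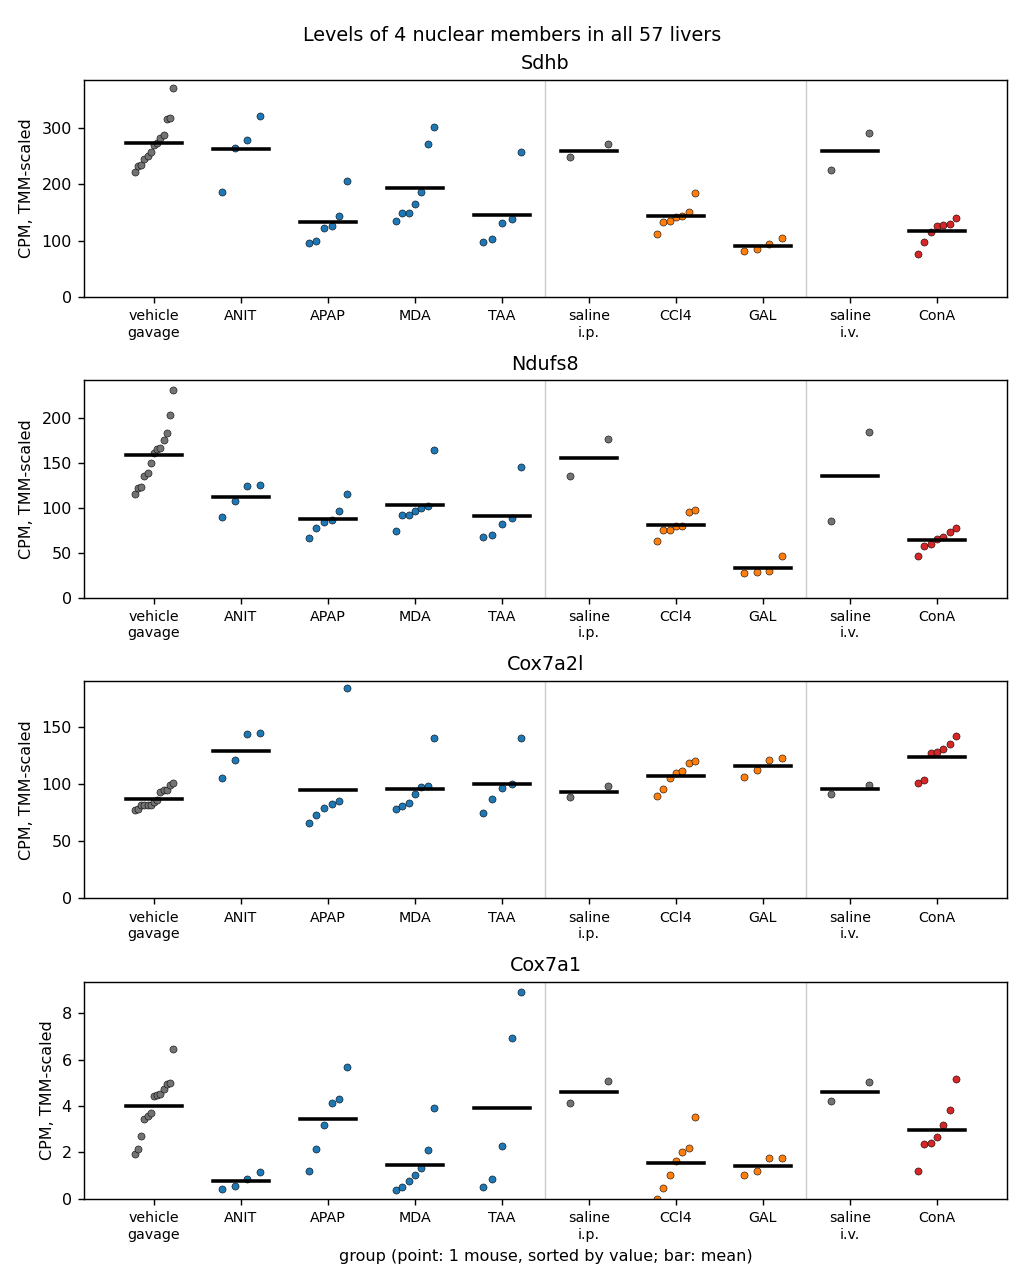
Level of Sdhb, Ndufs8, Cox7a2l and Cox7a1 in every mouse, in TMM-scaled CPM (vertical axes, from 0), by group (horizontal), sorted by value, with 1 point per mouse and a bar at the group mean. Sdhb lies between 95.3 and 206 CPM with APAP and between 222 and 371 CPM in gavage controls, and Cox7a2l lies above all gavage controls with ANIT.

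Complex III, which oxidises ubiquinol, had 8 nuclear subunits tested. All 8 fell with GAL, 7 with CCl4, 6 with APAP, 3 with MDA, and 1 each with TAA and ConA, and 0 with ANIT. The medians were -1.02 with GAL, -0.79 with CCl4 and -0.39 with APAP. Of the ATP synthase subunits 16 of 17 fell with GAL, 15 with CCl4, 13 with APAP, 7 with MDA, 4 with TAA and 3 with ConA, and 0 of 18 with ANIT. The counts of complex III with TAA, ConA and ANIT and those of ATP synthase with the same compounds are near or below the share of all genes that fell, 24.0%, 17.3% and 14.2%, while the share was 14.6% to 16.4% with the other compounds. The medians were -1.18 with GAL, -0.69 with CCl4, -0.55 with APAP and -0.56 with ConA. Atp5g1 and Atp5g3 are 2 of the genes that encode the identical c-subunit of the rotor ring. Atp5g1 stood at 180.5, 130.0, 99.8 and 125 CPM with GAL against 595 and 707 CPM (-2.28 ± 0.23, adjusted p = 0.00240), the largest fall among called nuclear members there whose mice did not overlap with the controls. Atp5g3 stood at 275, 164, 126 and 168 CPM against 689 and 754 CPM (-1.98 ± 0.29, adjusted p = 0.00557). Atp5j, part of the peripheral stalk, fell with CCl4 from 472 and 475 CPM to 148 to 320.4 (median 185) CPM (-1.17 ± 0.27, adjusted p = 0.00961).

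Complex IV is the cytochrome c oxidase. Of its nuclear members 10 of 17 fell with CCl4 and with GAL, 3 of 15 with APAP, 2 of 15 with MDA, 2 of 16 with ConA, 1 of 15 with ANIT and 0 of 15 with TAA, and 1 rose with each of ANIT, CCl4, GAL and ConA. Against the share of all genes that fell, 15.6% with CCl4 and 15.7% with GAL, those counts were high, whereas the counts with MDA (16.4%), ConA (17.3%), ANIT (14.2%) and TAA (24.0%) were below it and that with APAP (14.6%) near it. The medians were 0.17 with ANIT, -0.29 with APAP, -0.63 with CCl4, -0.81 with GAL and 0.06 with ConA. Cox7a2l, a relative of Cox7a2 known for a part in joining complexes III and IV and carried by C57BL/6 mice in a shortened form, was the member that rose with ANIT, at 105, 145, 121 and 144 CPM against 77.3 to 101 (median 84.3) CPM in gavage controls (0.56 ± 0.10, adjusted p = 0.000359). All 4 ANIT mice lay above all 13 controls. Against all 17 vehicle mice it was also higher with CCl4 (0.25 ± 0.067, adjusted p = 0.00263), GAL (0.35 ± 0.081, adjusted p = 0.000891) and ConA (0.57 ± 0.075, adjusted p = 2.66e-07). Scaled by the library total in place of TMM, the value with ANIT was 0.35 (adjusted p = 0.0800) and no longer passed.

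Several subunits of complex IV exist as a widespread form and a form named for muscle, testis or low oxygen, and the calls among the latter went both ways. Cox7a1, a form of heart and skeletal muscle, fell with ANIT to 1.16, 0.858, 0.555 and 0.426 CPM from 1.92 to 6.46 (median 4.45) CPM (-2.42 ± 0.34, adjusted p = 5.75e-05), with MDA to 0.375 to 3.92 (median 1.02) CPM (-1.50 ± 0.36, adjusted p = 0.00265) and with GAL to 1.02, 1.76, 1.19 and 1.75 CPM from 4.11 and 5.10 CPM (-1.67 ± 0.32, adjusted p = 0.0129). Its widespread partner Cox7a2 was at -0.13 ± 0.13, adjusted p = 0.496 with ANIT and -1.05 ± 0.14, adjusted p = 0.00428 with GAL. Cox6a2, another muscle form, stood at 2.20 to 5.73 (median 3.91) CPM with CCl4 and at 0 and 0.717 CPM in the controls (3.66 ± 1.07, adjusted p = 0.0264), and no vehicle mouse of any route exceeded 0.717 CPM. It passed the filter on low values there through the CCl4 mice, in which it is high, so its call is given as a description. The other treated groups averaged 0.0379 to 0.519 CPM, and it was tested with 2 compounds only. Its partner Cox6a1 fell with CCl4 (-0.73 ± 0.12, adjusted p = 0.00118). Cox6b2, a form of testis, stood at 1.82, 1.57, 1.83 and 1.65 CPM with GAL against 0.710 and 0.319 CPM (1.65 ± 0.43, adjusted p = 0.0327) and did not pass against all 17 vehicle mice (0.81 ± 0.51, adjusted p = 0.190), while Cox6b1 fell (-0.82 ± 0.14, adjusted p = 0.00987). Cox6b2 is low in these controls and could pass the filter through the GAL mice alone. Its call is given as a description. The muscle list of 5 markers summed to between 0 and 4.36 CPM in every mouse, with Myh6 above 0 in 1 of 57 mice, Myh4 in 2, Ckm in 13, Acta1 in 24 and Tnnt2 in 52. Tnnt2 was higher with APAP (1.98 ± 0.66, adjusted p = 0.0266), the single call in this list. Of the 3 brown fat markers Ucp1 was above 0 in 1 mouse, Cidea in 40 and Elovl3, which elongates fatty acids, in all 57. Elovl3, the only one of them tested, was lower with each of the 7 compounds, and the list summed to 2.45 to 36.3 CPM with ANIT, 4.56 to 90.1 CPM with MDA and 41.6 to 187 CPM in gavage controls. With GAL the sum was 1.94 to 7.24 CPM, against 111 to 193 CPM in the intraperitoneal controls. The highest estimated counts were 1 for Ucp1, 17 for Cidea and 6522 for Elovl3. These sums thus follow Elovl3 and not the other markers of the list. The part of either list in the changes of the complex IV forms was not tested.

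Ndufa4l2, a paralogue of Ndufa4 that is induced by low oxygen, moved in opposite directions with 2 compounds. With ConA it stood at 5.62 to 20.4 (median 8.62) CPM against 4.096 and 0.740 CPM (2.33 ± 0.78, adjusted p = 0.0417), and against all 17 vehicle mice it was at 2.00 ± 0.33, adjusted p = 6.48e-06. With CCl4 it stood at 0.149 to 1.59 (median 0.522) CPM against 4.94 and 1.75 CPM (-2.26 ± 0.72, adjusted p = 0.0370), and at -2.21 ± 0.44, adjusted p = 0.000148 against all 17. The difference between both effects was not tested. Ndufa4 itself fell with ConA (-0.73 ± 0.22, adjusted p = 0.0251) and with CCl4 (-0.61 ± 0.13, adjusted p = 0.00662). Cox4i1, the common form of the largest nuclear subunit, was at -0.77 ± 0.14, adjusted p = 0.0105 with GAL and 0.26 ± 0.30, adjusted p = 0.525 with ConA. Cox8a was at -0.75 ± 0.14, adjusted p = 0.0131 with GAL. Under library total scaling Cox4i1 and Cox8a stood at 0.0041 and 0.015 in the GAL comparison, no longer below 0. Cox4i2 and Cox8b were under 1 CPM on average in both groups of every comparison and are only counted.

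Set against all 17 vehicle mice, the nuclear counts changed most with ConA, from 21 to 60 of 90 lower and from 1 to 4 higher, beside 34.1% of all genes lower, with a median of -0.42. With GAL 83 of 92 fell and 1 rose (median -1.05), and with CCl4 82 of 91 fell and 3 rose (median -0.73). Complex I accounted for 37 of 38, 36 of 38 and 30 of 38 falls with GAL, CCl4 and ConA. Complex IV had 12 of 16 lower with GAL, 14 of 16 with CCl4 and 3 of 15 with ConA, where 3 were higher. The share of all genes that fell was 27.5% with GAL and 27.0% with CCl4. With APAP 60 of 91 fell beside 15.3% of all genes, with MDA 36 of 90 beside 17.1%, and with TAA 36 of 90 fell and 1 rose beside 24.5% lower. With ANIT 6 of 92 fell and 2 rose, fewer than the 14.5% of all genes that fell. Under library total scaling with all 17 controls, 2 rose and 86 fell with ConA beside 17.0% and 50.8% of all genes, 7 and 30 changed in these directions with GAL beside 54.6% and 11.5%, and 5 and 33 with CCl4 beside 50.3% and 12.2%.

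Compounds that share a route were also compared with each other. GAL livers held less than CCl4 livers in 37 of 90 nuclear members and more in 2, beside 22.2% of all genes lower and 20.3% higher, with a median of -0.30 beside 0.031 over all genes. Atp5g1 (-1.71 ± 0.17, adjusted p = 1.47e-05) and Ndufs8 (-1.23 ± 0.17, adjusted p = 0.000136) were among the lower ones, and Ndufa4 (0.43 ± 0.095, adjusted p = 0.00373) and Cox6b2 (2.41 ± 0.64, adjusted p = 0.00973) were higher. Cox6b2 stood at 0 to 0.684 CPM (median 0.230) with CCl4 and passed the filter on low values through the GAL mice, in which it is high. Its call is given as a description. Among the 13 mitochondrial members mt-Nd1 (-0.65 ± 0.13, adjusted p = 0.00206) and mt-Nd2 (-0.64 ± 0.14, adjusted p = 0.00298) were lower with GAL, and with the copies added mt-Co1 was called higher (0.65 ± 0.19, adjusted p = 0.0177). The falls are a smaller share of the 13 than the 22.2% of all genes, so their count is no result about these mRNAs. Library total scaling gave 8 nuclear calls higher and 15 lower, and 3 and 2 mitochondrial ones, beside 28.6% of all genes higher and 13.9% lower. Between TAA and APAP, 0 of 13 mitochondrial and 0 of 90 nuclear members passed with edgeR, with 3 and 4 at an unadjusted p under 0.05 and 1 and 2 called by DESeq2, beside 2.62% of all genes. Between ANIT and MDA, 0% of all genes passed, so that this comparison called no member, with 0 mitochondrial and 12 nuclear members at an unadjusted p under 0.05 and 0 called by DESeq2. The share of all genes at the unadjusted threshold is not given here, so the unadjusted counts are no result about the members.

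Other mitochondrial genes were counted from lists chosen beside the members. Of 14 enzymes of the tricarboxylic acid cycle 9 fell with APAP, 8 with CCl4 and 1 rose, 7 fell with GAL, 6 with TAA, 4 with ConA and 3 with MDA, and with ANIT 2 rose and 2 fell. Of 78 mitochondrial ribosomal proteins 24 fell and 2 rose with ConA, 17 fell and 1 rose with APAP, 16 fell and 2 rose with GAL and with MDA, 17 fell and 7 rose with TAA, 11 fell and 13 rose with CCl4, and 8 fell and 7 rose with ANIT. The medians of this list lay between -0.46 with ConA and -0.02 with CCl4, where the nuclear members were at -0.67. Of the genes for maintenance and transcription of mitochondrial DNA and handling of its RNA 10 of 28 fell with ConA and 0 rose, 9 fell and 1 rose with APAP, 8 fell and 6 rose with TAA, 4 fell and 1 rose with MDA, and 3 fell and 1 rose with ANIT. Of 29 tested 1 fell and 4 rose with CCl4 and 1 fell and 3 rose with GAL. Those lower with ConA included Polg2 (-2.51 ± 0.32, adjusted p = 0.000335), an accessory subunit of the mitochondrial DNA polymerase, Twnk (-1.75 ± 0.33, adjusted p = 0.00278), the replicative helicase, and Lrpprc (-0.95 ± 0.29, adjusted p = 0.0265), which stabilises mitochondrial mRNAs. Tfam, which packages and transcribes mitochondrial DNA, was at -0.26 ± 0.35 (adjusted p = 0.596) with ConA and did not pass. Of the biogenesis regulators 2 of 9 rose with ConA, Pprc1 (3.06 ± 0.39, adjusted p = 0.000342) and Gabpb1 (1.78 ± 0.51, adjusted p = 0.0219), and 0 fell. Of 9 tested 3 rose and 2 fell with GAL, 1 rose and 1 fell with APAP and 1 rose with MDA, and of 10 tested 4 rose and 2 fell with TAA, 2 rose and 1 fell with ANIT and 1 rose and 2 fell with CCl4. Of 37 assembly factors outside the members 15 fell and 4 rose with MDA, 14 and 0 with TAA, 12 and 2 with ConA, 11 and 0 with APAP, 9 and 0 with GAL, 7 and 4 with ANIT, and 7 and 2 with CCl4. Of 18 electron and nucleotide carriers 4 to 8 fell and 1 to 3 rose with each compound. The 2 tested ribosomal and transfer RNAs of the mitochondrial genome gave 0 calls against any route vehicle. Beside these counts stand the shares of all genes that fell and rose, 14.2% and 14.0% with ANIT, 14.6% and 17.3% with APAP, 16.4% and 17.4% with MDA, 24.0% and 26.4% with TAA, 15.6% and 18.0% with CCl4, 15.7% and 12.8% with GAL, and 17.3% and 16.8% with ConA. The falls of the ribosomal proteins were a smaller share than this with ANIT, TAA and CCl4 and near it with GAL and MDA, so that those counts are no result about the list.

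Markers of liver cell types moved with some of these groups. All 7 hepatocyte markers fell with CCl4, their sum ranging from 21650.4 to 32733 CPM, and with GAL, from 26920.4 to 34458 CPM, against 62211 to 69201 CPM in the intraperitoneal controls. With ConA 1 of 7 fell, and the sum ranged from 38804 to 86202 CPM against 59924 to 70203 CPM in the intravenous controls. In the gavage compounds 1 to 4 of the 7 fell, 1 rose with APAP and 1 with TAA, and the sums lay between 60598 and 128125 CPM, against 55912 to 120796 CPM in the gavage controls. Erythroid markers rose in 4 of 5 with ConA (1242 to 6908 CPM, against 106 to 177 CPM), with TAA and with APAP, where 1 fell with TAA and with APAP as with each remaining compound. Neutrophil markers rose in 6 of 6 tested with TAA, 4 of 5 with ConA, 4 of 4 with GAL, 3 of 4 with APAP, 3 of 5 with CCl4, 2 of 4 with MDA and 1 of 4 with ANIT, and none fell. Their sum was 158 to 820.2 CPM with TAA and 126 to 287 CPM with ConA, against 2.04 to 61.0 CPM in gavage and 7.79 to 8.85 CPM in intravenous controls. Monocyte and macrophage markers rose in 5 of 6 tested with APAP, 3 of 6 with TAA, CCl4 and GAL, 1 of 6 with MDA and 0 of 5 with ANIT and ConA, where 2 and 1 fell. Stellate cell markers fell in 4 of 5 with MDA, 2 of 5 with ANIT, 1 of 5 with TAA, CCl4 and ConA and 0 of 5 with APAP and GAL, and 2 rose with APAP and with TAA. Endothelial markers fell in 3 of 5 with CCl4 and with TAA, 2 of 5 with ANIT, MDA and ConA, 1 of 5 with APAP and 0 of 5 with GAL, and 2 rose with APAP, TAA and ConA and 1 with ANIT and MDA. Cholangiocyte markers rose in 2 of 5 with APAP, TAA and ConA, 1 of 5 with ANIT and MDA and 0 of 5 with CCl4 and GAL, and 2 fell with ANIT. B cell markers rose in 3 of 3 tested with TAA and fell in 2 of 3 with ANIT and 2 of 2 with MDA, and no T cell marker was called. Of the 5 Kupffer cell markers 2 rose with GAL, and 1 rose with each of the gavage compounds and CCl4, where 1 fell with each, or 2 with CCl4. All 5 Kupffer cell markers fell with ConA, to 23.0 to 49.7 CPM from 277 to 279.7 CPM. No hepatocyte, erythroid or Kupffer cell marker was at 0 in all mice of a group, and 2 of the 6 neutrophil markers were at 0 in both intravenous and 2 in both intraperitoneal controls, and 1 in all gavage controls and all ANIT mice. A marker at 0 in every control could enter a test only through the treated mice and could only be called higher. The neutrophil counts are therefore given as a description. The part of the cell types in the changes of the members was not tested.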

How the data were processed

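For 57 livers the authors deposited estimated counts by gene ID, and the submitters' processing notes name Salmon 1.6.0, R 4.1.3 and the build GRCm39. The annotation, the length setting and the use of strand are not given in the sources used here. The lowest nonzero values in the deposited estimated counts were larger in shorter transcripts. Symbols came from GENCODE M21, which matched 51482 IDs and left 2825. Members and lists were chosen with earlier results of these data known. Values were rounded and fitted per comparison by edgeR (4.0.16, on limma 3.58.1, under R 4.3.3), with TMM, filterByExpr and the quasi-likelihood test, without covariates. Genes were called at an adjusted p under 0.05 over all genes. Counts at an unadjusted p, and those by DESeq2 other than with ConA, stand without the share of all genes. They are no result about the members. Named were the 13 mitochondrial mRNAs, the Sdh genes, the complex IV isoforms with their partners and, per compound, up to 4 largest rises and falls among called nuclear members whose mice lay beyond every route control. Members averaging under 1 CPM in both groups were only counted. Genes of the other lists were named after their values were seen. DESeq2 1.42.0, other scalings, filters, covariates and added nuclear copies were alternatives. The test was tried on simulated counts.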

Additional observations from a re-analysis of the deposited data

Results flagged for a closer look

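Levels and shares in groups of 4 to 10 mice were screened for a mouse far from the others, by Dixon's 95% limit. Of 147 sets of values screened 22 passed the limit. For a single set chance gives about 1 in 20. Sets share mice and are not independent, so 22 of 147 cannot be set against that rate.

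MDA mouse 2 accounted for 8 of them. It held 12482 CPM of mt-Nd1 where the next highest MDA mouse held 6086, 17766 against 9480 of mt-Nd2, 726 against 323 of mt-Nd3, and 10759 against 5837 of mt-Nd4. It also held 7134 CPM against 3612 of mt-Nd5, 26712 against 14805 of mt-Co1, 14691 against 6078 of mt-Co3 and, among the nuclear members, 202 against 127 of Sdha. MDA mouse 1 held 181 CPM of Sdhd against 125 in the next.

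TAA mouse 1 was the highest of 5 in mt-Nd1 (8752 CPM, the next 4963), mt-Nd4l (2954, the next 1443), mt-Co1 (29846, the next 18483), mt-Co2 (4800.3, the next 2112) and Sdhb (258, the next 138). TAA mouse 7 had the highest share of all 13 mitochondrial mRNAs, 24.3% against 14.6% in the next. GAL mouse 2 was the lowest of 4, with 3.37% against 5.21% for the 12 mitochondrial mRNAs without mt-Atp8, 645 against 1705 CPM for mt-Atp6 and 6766 against 11962 CPM for mt-Co1.

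Single values elsewhere were mt-Co2 in ANIT mouse 1 (2102 CPM, the next 1073), mt-Nd5 in APAP mouse 1 (5009, the next 2181), mt-Nd6 in CCl4 mouse 1 (101, the next 57.8) and mt-Atp8 in ConA mouse 2 (636028, the next 308758).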

How the results depend on the processing

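The 17 vehicle controls with added copies or with the library total, and the added copies alone, were alternatives chosen after seeing the data; the rest were set at the outset. Depth is not known in reads, since values are estimated and look corrected for length, so no counting limits are given. The saline groups of 2 mice limit the comparisons of CCl4, GAL and ConA, and with 1 of them left out the lone control is assumed to vary like the other group. For the results with a single gene, 1149 of the recomputed values kept direction and side of the threshold, 147 kept only the direction and 4 reversed. The reversed ones are GAL against its route vehicle with the library total, Cox4i1 at 0.0041 and Cox8a at 0.015, and the same with all 17 vehicle mice, at 0.080 and 0.14.

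Counts of called members that moved by over 1.5 times are given here, and the cause was not tested. The share of all genes under each setting is not given in this section. Its counts show how calls depend on the setting and are no result about the members. Under library total scaling nuclear calls were 35 with APAP, 16 with CCl4, 14 with GAL and 63 with ConA, and mitochondrial ones 1 with TAA and 2 with CCl4; between GAL and CCl4 they were 23 nuclear and 5 mitochondrial. DESeq2 called mitochondrial members as follows: 1 with ANIT, 2 with APAP, 1 with TAA, 4 with CCl4, 5 with GAL, 8 with ConA, and 1 between intraperitoneal and gavage controls, with 1 nuclear; between TAA and APAP it called 1 mitochondrial and 2 nuclear. Without a filter on low values 5 nuclear members were called with ANIT, 0 mitochondrial with CCl4 and 1 with GAL. At a mean of at least 5 CPM 3 mitochondrial members were called with CCl4 and 37 nuclear ones with ConA. With copies added 0 mitochondrial members were called with CCl4. With mouse numbers up to 4 or above 4 as a covariate, 3 mitochondrial members were called with APAP, 1 with TAA and 1 with GAL.

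Against all 17 vehicle mice the mitochondrial counts were 0 with APAP, 1 with MDA, 9 with CCl4, 5 with GAL and 12 with ConA, and the nuclear count with ConA was 64. With copies added as well, they were 1 with MDA, 12 with CCl4, 5 with GAL and 13 with ConA, and 63 nuclear with ConA. Scaled by the library total as well, they were 1 mitochondrial and 14 nuclear with ANIT, 0 mitochondrial with APAP, 1 mitochondrial and 40 nuclear with TAA, 38 nuclear with CCl4, 37 nuclear with GAL, and 7 mitochondrial and 88 nuclear with ConA.

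Leaving out 1 mouse at a time gave 4 to 8 nuclear and 0 to 1 mitochondrial calls with ANIT, 1 to 2 mitochondrial with APAP, 16 to 66 nuclear and 0 to 1 mitochondrial with TAA, 45 to 73 nuclear and 0 to 2 mitochondrial with CCl4, 1 to 3 mitochondrial with GAL, and 5 to 23 nuclear and 3 to 7 mitochondrial with ConA. Between GAL and CCl4 it gave 2 to 5 mitochondrial calls, between TAA and APAP 0 to 1 mitochondrial and 0 to 2 nuclear, and between intravenous and gavage controls 0 to 4 nuclear.

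The summed share of the mitochondrial mRNAs without mt-Atp8 was 5.07% with ANIT, 4.27% with APAP, 5.13% with MDA, 5.36% with TAA, 3.82% with CCl4, 4.84% with GAL and 7.59% with ConA. As a share of the total without mitochondrial genes it was 6.09%, 5.00%, 6.32%, 6.38%, 4.33%, 5.80% and 10.3%.

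The replicate numbers name different animals, and same-numbered mice did not deviate together in every pair: the lowest correlation of deviations was -0.0055 with ANIT, -0.0096 with APAP, -0.15 with MDA, 0.0075 with TAA and 0.038 with GAL. With the number as a replicate block, nuclear calls were 2 with ANIT, 0 with APAP, 20 with MDA, 19 with TAA and 66 with GAL, and mitochondrial ones 0 with ANIT, 0 with APAP, 0 with MDA, 1 with TAA and 6 with GAL. The share of all genes under the block is not given, so these counts are no result about the members. No paired analysis was possible for CCl4 or ConA against their route vehicles or between GAL and CCl4 because these groups share fewer than 2 numbers.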
